A study of Solanum lycopersicum var. cerasiforme with 6 samples.

Results

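Pericarp of cherry tomato (Solanum lycopersicum var. cerasiforme) injected with ABA was set directly against pericarp injected with NDGA, gene by gene, in the FPKM (fragments mapped per length of transcript, scaled to the size of the library) that were deposited for each treatment. ABA fruit had received 25 µL of abscisic acid at 10 mM, NDGA fruit 25 µL of nordihydroguaiaretic acid at 1 mM, and the CK fruit that served as control 25 µL of distilled water. Injection was at the mature green stage, and pericarp was sampled on day 9 with the seeds removed. In each group 2 libraries were made, from fruits harvested in successive weeks, and each library pooled RNA of 10 fruits. The table of all loci holds 31571 entries with 1 averaged value per group, of which 24556 name a single gene, 18365 of these reach a mean of 1 FPKM over ABA, NDGA and CK, and 18206 of those come from a locus longer than 300 bp. These 18206 entries, which cover 15504 genes, were compared. The comparison used the log2 ratio of ABA to NDGA with 0.1 FPKM added to both values, so that a positive ratio means a higher value in ABA fruit. Because each group is represented by an average without its spread, no difference could be held against the replicate error and no test was made, and a gene is called higher or lower below only in the sense that the averages lay at least 2-fold apart.

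ABA is the hormone of seed dormancy and drought responses, and in fleshy fruit its level peaks before ripening sets in. It is made by oxidative cleavage of epoxycarotenoids, so that its precursors come from the same pathway as the red pigment lycopene. NDGA is used as an inhibitor of that cleavage step and therefore of ABA formation, although it is also a general inhibitor of lipoxygenases and an antioxidant. In tomato, a climacteric fruit, ripening proceeds with a burst of ethylene, loss of chlorophyll and of the photosynthetic apparatus, build-up of carotenoids and flavonoids, and dismantling of the cell wall.

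ABA fruit had at least 2-fold higher values than NDGA fruit in 1265 of the 18206 entries (6.95%) and at least 2-fold lower values in 3010 (16.5%), so that 23.5% of the entries lay past this threshold and 70.4% of those were lower in ABA fruit. The bulk of the distribution was centred, with a median log2 ratio of -0.02, quartiles of -0.59 and 0.37, and 8843 entries above and 9344 below 0. The lower tail was longer, as the 5th percentile was -2.39 and the 95th percentile 1.20, and a log2 ratio of -3 or lower was reached by 561 entries against 165 at 3 or higher. At the threshold itself, Solyc12g095820.1 with 9.27 FPKM in ABA and 4.58 FPKM in NDGA fruit counted as higher, and Solyc03g005020.2 with 148 FPKM in ABA and 73.8 FPKM in NDGA fruit did not. On the other side, Solyc02g067150.2 with 0.654 FPKM in ABA and 1.41 FPKM in NDGA fruit counted as lower, and Solyc09g010140.1 with 9.36 FPKM in ABA and 18.8 FPKM in NDGA fruit did not.

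The excess of lower values in ABA fruit was widest among weakly expressed genes. With a mean of 1 to 3 FPKM, 8.90% of the 3504 entries were higher and 32.0% were lower in ABA than in NDGA fruit, whereas with a mean of 30 to 100 FPKM 6.23% of 3389 entries were higher and 6.67% lower. Among the 144 entries at 1000 FPKM or more, 29.2% were higher and 31.2% lower. An entry that is low in both other groups can pass the filter of 1 FPKM through the group in which it is high, and such an entry had to differ, so the shares in the lowest class partly follow from that filter. Over the 10056 entries with a mean of at least 10 FPKM, 6.50% were higher and 9.33% lower, and the median log2 ratio was 0.10. Of those past the threshold, 58.9% were lower, against 70.4% without this limit. For this reason several gene groups below are also described for members at or above 10 FPKM.

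**Figure D1:**
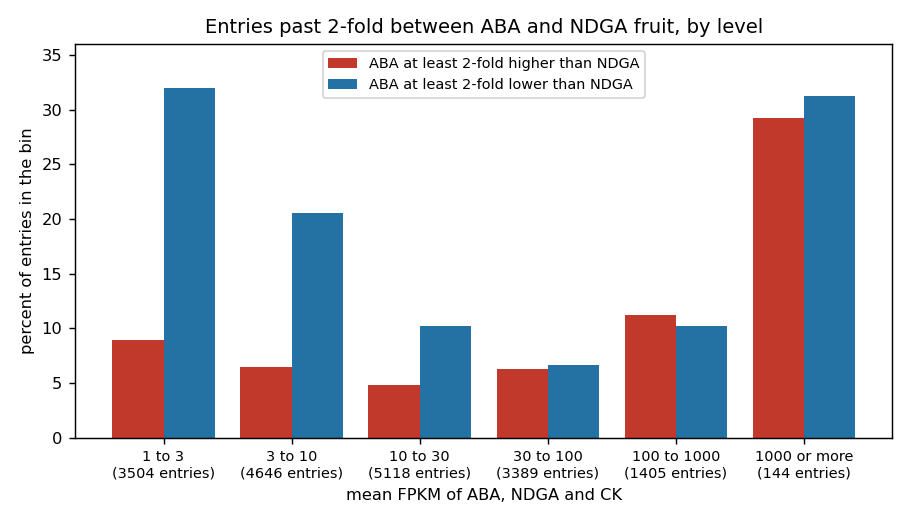
Percent of entries in which the ABA value was at least 2-fold higher (red) or at least 2-fold lower (blue) than the NDGA value, by mean FPKM of ABA, NDGA and CK; the number of entries stands under each class. The blue bar stands at 32.0% in the class of 1 to 3 FPKM and at 6.67% in that of 30 to 100 FPKM, and both bars are near 30% at 1000 FPKM or more.

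The water control mostly lay between the treatments. Among entries at least 2-fold higher in ABA than in NDGA fruit, the CK value was between them in 83.1% (1051 of 1265), and among those at least 2-fold lower in 82.0% (2467 of 3010), against 58.7% over all 18206 entries and 51.5% of the 13931 entries within 2-fold. A wide gap between the treatments leaves more room for the CK value, so the larger share among entries past the threshold partly follows from their selection. The 3518 entries past the threshold with CK in between include 108 in which CK and one of the treatments were both listed at 0. CK stood above both treatments in 364 of the 4275 entries past the threshold and below both in 393.

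**Figure D2:**
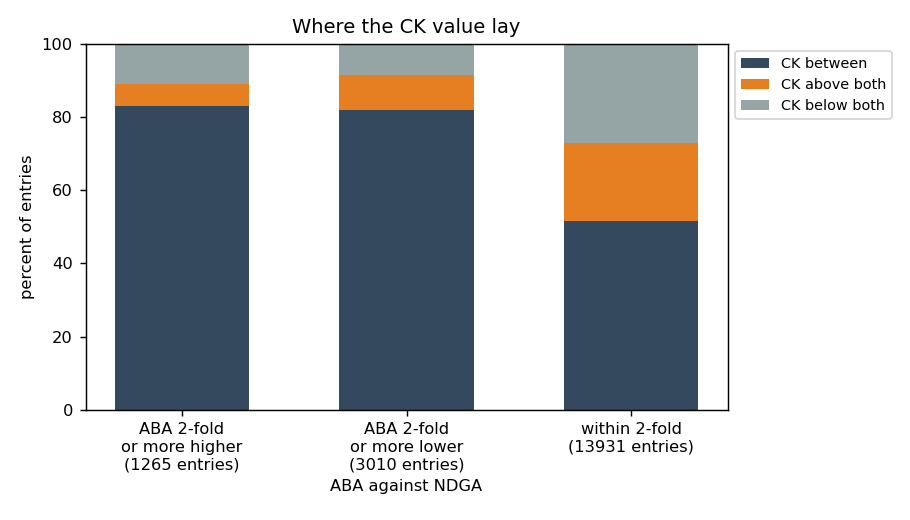
Percent of entries in which the CK value lay between the ABA and NDGA values (dark), above both (orange) or below both (grey), for entries at least 2-fold higher in ABA fruit, at least 2-fold lower in ABA fruit, and within 2-fold. The dark part reaches 83.1%, 82.0% and 51.5%.

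Seed genes were lower in ABA than in NDGA pericarp, although seeds were removed at dissection. Of 37 entries for oleosins, seed storage proteins, a gene annotated as seed gene 1 and the cupin family, which holds seed storage globulins along with other proteins, 26 were lower and 1 higher, with a median log2 ratio of -1.66, and their FPKM summed to 5022 in ABA, 21747 in NDGA and 10242 in CK fruit. Seed storage proteins were lower in 6 of 6 entries (summed 1256 FPKM in ABA, 8010 in NDGA and 3649 in CK), oleosins of seed oil bodies in 10 of 13, and cupins in 9 of 17. Cruciferin 3 (Solyc03g005580.2) had 25.6 FPKM in ABA, 698 in NDGA and 417 in CK fruit, and the most abundant seed storage albumin (Solyc08g080490.2) 961 FPKM in ABA, 5783 in NDGA and 2557 in CK fruit. A pair of genes annotated as NF-YB6, whose Arabidopsis namesake acts in the embryo, were looked up after their values had been seen, Solyc05g005350.1 with 1.91 FPKM in ABA, 8.68 in NDGA and 3.87 in CK fruit and Solyc05g005360.1 with 1.70 FPKM in ABA, 6.25 in NDGA and 1.94 in CK fruit. Late embryogenesis and dehydrin proteins, which accumulate in seeds and under drought, were lower in 12 and higher in 2 of 40 entries (median -0.48). Of the 37 seed marker entries, 2 were listed at 0 in ABA fruit, and the others were above 0 in all groups. Vascular markers differed less, with 7 of 25 entries lower and 1 higher (median -0.76), against 16.5% lower and 6.95% higher over all entries. Their sums were 294 FPKM in ABA, 446 in NDGA and 334 in CK fruit. Of the 13 vascular entries at a mean of 10 FPKM or more, 2 were lower and 1 higher. A laccase 6 entry among the 7 lower ones (Solyc05g050540.2) was listed at 0 in ABA and CK fruit. Whether a different share of seed or other tissue in the samples had a part in the ratios of the lists below was not tested, and in bulk RNA fewer cells of a type and less RNA per cell cannot be told apart.

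Genes of ethylene formation went in both directions. Of 13 entries for S-adenosylmethionine synthetases, ACC synthases and ACC oxidases, which make ethylene from methionine in that order, 3 were higher and 5 lower in ABA than in NDGA fruit, and the median log2 ratio was -0.33. The 3 higher ones are listed by the authors as ACC synthases, the step that usually sets the rate. LeACS2 (Solyc01g095080.2, chromosome 1 from 78214066 to 78216996 on SL2.40) had 678 FPKM in ABA, 114 in NDGA and 297 in CK fruit, a log2 ratio of ABA to NDGA of 2.57. LeACS4 (Solyc05g050010.2) stood at 275 FPKM in ABA, 61.3 in NDGA and 121 in CK fruit (log2 ratio 2.16). Solyc08g079750.2, named ACC synthase 6 by the authors but annotated as ACC synthase 10, stood at 45.3 FPKM in ABA, 19.4 in NDGA and 21.7 in CK fruit (log2 ratio 1.22). Among the lower ones were ACC oxidases, which release ethylene in the last step. LeACO4 (Solyc02g081190.2) had 16.2 FPKM in ABA, 51.4 in NDGA and 26.3 in CK fruit, and the more abundant ACC oxidase 4 homologue Solyc02g036350.2 had 159.8 FPKM in ABA, 746 in NDGA and 661 in CK fruit, log2 ratios of -1.66 and -2.22. LeSAM1 (Solyc01g101060.2), which supplies the methyl donor, was lower as well, with 461 FPKM in ABA, 1307 in NDGA and 945 in CK fruit. The locus that merges LeACO1 and LeACO3 is not among the entries compared because it names more than 1 gene, and it ran the other way from the listed ACC oxidases, with 3828 FPKM in ABA, 593 in NDGA and 2157 in CK fruit (log2 ratio 2.69). Likewise left out, the locus that merges LeACS6 and LeACS8 ran the other way from the 3 higher ACC synthases, with 2.03 FPKM in ABA, 6.94 in NDGA and 5.03 in CK fruit (log2 ratio -1.73).

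Further down the pathway, the receptor NR (LeETR3, Solyc09g075440.2), a membrane protein that binds ethylene, had 728 FPKM in ABA, 305 in NDGA and 572 in CK fruit and a log2 ratio of 1.25. Of 11 entries for ethylene receptors and the receptor regulator RTE1 it was the higher one, and 2 were lower, one being the RTE1 homologue Solyc01g104340.1 with 1.15 FPKM in ABA, 9.54 in NDGA and 2.05 in CK fruit. The cytoplasmic and nuclear relay behind the receptors (CTR1, EIN2, the EIN3 and EIL factors, the EBF proteins and a MAP kinase cascade) lay close together in both treatments, with 0 of 19 entries higher, 2 lower and a median of 0.18. The 2 lower ones were LeMKK4 (Solyc03g097920.1, log2 ratio -1.48) and LeMPK3 (Solyc06g005170.2, log2 ratio -1.05). The ethylene response factors of the deposited ethylene table numbered 33 entries, 4 higher and 11 lower, with a median of -0.12. AP2a (Solyc03g044300.2), which restrains ripening in tomato, was among the higher ones at 380.4 FPKM in ABA, 154 in NDGA and 281 in CK fruit, and an ERF4-type gene with 2 entries, Solyc03g006320.1, was among the lower ones at 4.30 and 4.33 FPKM in ABA fruit, against 30.5 and 20.0 FPKM in NDGA fruit. Downstream of ethylene, E4 (Solyc03g111720.2, a methionine sulfoxide reductase used as an early ripening marker) had 11052 FPKM in ABA, 2149 in NDGA and 7288 in CK fruit (log2 ratio 2.36). A gene of the dioxygenase superfamily, Solyc03g095900.2, had 3295 FPKM in ABA, 549 in NDGA and 1810 in CK fruit. The ripening marker E8 (Solyc09g089580.2), of the same superfamily, was listed at 0 in ABA, at 7166 FPKM in NDGA and at 11339 FPKM in CK fruit, and since an exact 0 at a gene of this level can be a failed estimate, no fold is given.

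Of 8 entries for transcription factors that govern ripening, 1 was higher and 1 lower past the threshold, with a median log2 ratio of 0.49. These are 12.5% each, against 6.95% higher and 16.5% lower over all entries. FUL1 (Solyc06g069430.2), a MADS-box partner of RIN, had 919.7 FPKM in ABA, 232 in NDGA and 446 in CK fruit (log2 ratio 1.99). TAGL1 (Solyc07g055920.2) and NOR (Solyc10g006880.2) came next with log2 ratios of 0.99 and 0.93, and the more abundant entry of CNR (Solyc02g077920.2) with 0.55. MADS1 (Solyc03g114840.2), described in tomato as a repressor of ripening, was at 37.8 FPKM in ABA, 80.7 in NDGA and 78.2 in CK fruit (log2 ratio -1.09), and HB-1 (Solyc02g086930.2), a homeobox factor described as an activator of an ACC oxidase gene, was within 2-fold at a log2 ratio of -0.76. RIN shares its locus with a second gene, and that merged locus, not among the entries compared, held 1203 FPKM in ABA, 397 in NDGA and 672 in CK fruit.

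The genes of ABA metabolism and perception went in both directions. Of 11 entries for ABA synthesis, 1 was higher and 4 lower in ABA than in NDGA fruit (median -0.53). The lower ones were zeaxanthin epoxidase (Solyc02g090890.2, log2 ratio -2.18), which forms the epoxycarotenoid precursor, a pair of weakly expressed homologues of the cleavage enzyme NCED (Solyc08g016720.1, log2 ratio -1.94, and Solyc08g075490.2, log2 ratio -3.37), and the short-chain dehydrogenase Solyc04g071960.2, listed at 0 in ABA fruit. The abundant NCED gene Solyc07g056570.1 was within 2-fold at a log2 ratio of -0.67. A further short-chain dehydrogenase, Solyc12g056600.2, was the higher one at 486 FPKM in ABA, 157 in NDGA and 286 in CK fruit. For catabolism and conjugation, 5 of 12 entries were higher and 3 lower (median 0.44), and the conjugating enzymes Solyc01g107830.2 and Solyc01g107820.2, both annotated as UDP-glucosyl transferase 73B3, had log2 ratios of 1.83 and 1.30. The 3 lower entries were a pair of genes of that same annotation, Solyc04g008310.1 (log2 ratio -1.44) and Solyc10g079930.1 (log2 ratio -1.06), and the ABA-degrading CYP707A gene Solyc04g078900.2 (log2 ratio -3.23). Receptors of the PYR/PYL family showed 1 of 15 entries higher and 7 lower (median -0.94). The 1 higher entry, the PYL9 homologue Solyc08g082180.2, had the highest FPKM of them with 100.1 FPKM in ABA, 41.5 in NDGA and 46.4 in CK fruit, while the 7 lower ones each had a mean under 10 FPKM, and of the 3 entries at a mean of 10 FPKM or more 0 were lower. Over those 3 the median was 0.94, of the opposite sign to that of the whole list. The phosphatases and kinases that act behind the receptors (PP2C and SnRK2) included 1 higher and 2 lower of 17 entries, with a median of 0.04.

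Among carotenoid genes, most of the abundant ones on the way to lycopene were higher in ABA fruit. Phytoene synthase commits precursors to carotenoids, and its gene Solyc03g031860.2 (chromosome 3 from 8604956 to 8610361) had 5451 FPKM in ABA, 1339 in NDGA and 2795 in CK fruit, a log2 ratio of 2.03. Zeta-carotene desaturase (Solyc01g097810.2) had 108 FPKM in ABA, 42.2 in NDGA and 58.8 in CK fruit and carotenoid isomerase (Solyc10g081650.1) 198 FPKM in ABA, 83.9 in NDGA and 118 in CK fruit. These enzymes lead to lycopene, and phytoene desaturase (Solyc03g123760.2), between them, was within 2-fold at a log2 ratio of 0.66. Past lycopene, a lycopene cyclase (Solyc04g040190.1) had a log2 ratio of -0.47 and the beta-carotene hydroxylase Solyc06g036260.2 one of 0.76, both within 2-fold. A second phytoene synthase, Solyc02g081330.2, was weakly expressed at 6.30 FPKM in ABA, 11.3 in NDGA and 8.32 in CK fruit. Over the 19 entries of the carotenoid list, which also holds the ABA genes that KEGG places there, 4 were higher and 6 lower with a median of -0.52, while over the 10 entries at a mean of 10 FPKM or more 3 were higher and 1 lower with a median of 0.71. In the isoprenoid supply, 3 of 22 entries were higher and 2 lower (median 0.26). The kinase of the plastid pathway, Solyc01g009010.2, was higher at 312 FPKM in ABA, 89.0 in NDGA and 169 in CK fruit (log2 ratio 1.81), and the isopentenyl diphosphate isomerase genes diverged, Solyc04g056390.2 with 302 FPKM in ABA, 127 in NDGA and 195 in CK fruit and Solyc05g055760.2 with 8.08 FPKM in ABA, 29.3 in NDGA and 27.9 in CK fruit.

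Flavonoid genes were at least 2-fold apart in all 10 entries, 5 higher and 5 lower in ABA than in NDGA fruit, with CK between the treatments in each. The 4 entries at a mean of 10 FPKM or more were all higher. A gene of the chalcone and stilbene synthase family, which starts the pathway (Solyc05g053550.2, chromosome 5 from 62779401 to 62781543), had 676 FPKM in ABA, 60.98 in NDGA and 189 in CK fruit, a log2 ratio of 3.47. Flavanone 3-hydroxylase (Solyc02g083860.2) had 279 FPKM in ABA, 89.6 in NDGA and 184 in CK fruit. Flavonol synthase 1 (Solyc11g013110.1), which forms the flavonols of tomato peel, is listed in 2 entries, with 1788 and 383 FPKM in ABA, 391 and 88.4 in NDGA and 1141 and 225 in CK fruit. The lower entries were weakly expressed and included those of anthocyanin formation, dihydroflavonol 4-reductase (Solyc02g085020.2, 0.883 FPKM in ABA and 3.32 in NDGA fruit) and leucoanthocyanidin dioxygenase (Solyc08g080040.2, 4.68 FPKM in ABA and 12.4 in NDGA fruit). A chalcone isomerase family gene, Solyc05g010320.2, was also lower, at 2.01 FPKM in ABA, 14.2 in NDGA and 7.88 in CK fruit.

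**Figure D3:**
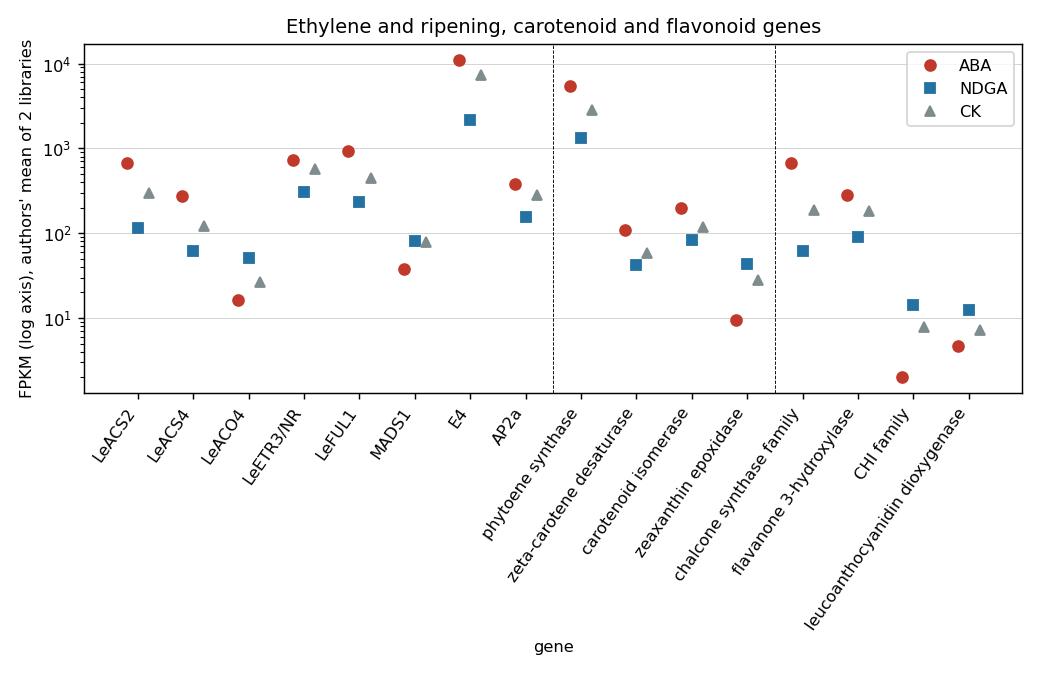
FPKM on a log axis of 16 genes in ABA (red circles), NDGA (blue squares) and CK fruit (grey triangles), each the authors' mean of 2 libraries, for ethylene and ripening genes, carotenoid genes and flavonoid genes from left to right. The red circle is the top symbol for 11 of them, from LeACS2 to flavanone 3-hydroxylase, and the bottom one for the other 5, LeACO4, MADS1, zeaxanthin epoxidase, the chalcone isomerase family gene and leucoanthocyanidin dioxygenase.

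The photosynthetic apparatus had the lowest median of all lists with at least 10 entries. Of 57 entries annotated as photosystem, light-harvesting or plastocyanin proteins, 35 were lower and 4 higher in ABA than in NDGA fruit, with a median log2 ratio of -2.10. With a mean of 10 FPKM or more, 24 of 43 were lower and 2 higher, and the median was -1.46. The antenna proteins that gather light, as the deposited KEGG annotation assigns them, showed 13 of 14 entries lower and 0 higher, with a median of -4.65. A chlorophyll A/B binding protein 1 (Solyc03g005760.1, chromosome 3 from 538195 to 538999) had 0.151 FPKM in ABA, 27.6 in NDGA and 13.8 in CK fruit, a log2 ratio of -6.79, and a second gene of that name, Solyc02g071030.1, had 0.262 FPKM in ABA, 21.7 in NDGA and 6.80 in CK fruit. Of all 5 entries annotated as chlorophyll A/B or A-B binding, 2 were lower and 1 higher (median -0.53), the higher one being Solyc09g082690.2 with 22.9 FPKM in ABA, 3.93 in NDGA and 4.32 in CK fruit. The more abundant antenna gene Solyc10g006230.2 of photosystem I had 4.87 FPKM in ABA, 124 in NDGA and 100.3 in CK fruit. The exception within 2-fold was Solyc12g011450.1, annotated as light-harvesting chlorophyll B-binding protein 3, with 26.3 FPKM in ABA, 19.2 in NDGA and 17.5 in CK fruit.

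Within the photosystems, subunits of photosystem I were lower in 9 of 12 entries and higher in 0 (median -3.18). Subunit PSI-N (Solyc08g013670.2) had 0.416 FPKM in ABA, 45.8 in NDGA and 24.5 in CK fruit (log2 ratio -6.48), subunit D-2 (Solyc06g054260.1) 22.3 FPKM in ABA, 268 in NDGA and 178 in CK fruit, and subunit G (Solyc07g066150.1) 15.4 FPKM in ABA, 217 in NDGA and 155 in CK fruit. The remaining 3, subunits H-1, P and a second copy of E-2, lay within 2-fold at log2 ratios from -0.40 to -0.11. Photosystem II entries were lower in 14 of 32 and higher in 4 (median -0.64). The oxygen-evolving subunit Q-2 (Solyc02g079950.2) had 3.01 FPKM in ABA, 122 in NDGA and 95.4 in CK fruit, whereas both genes for subunit R, the most abundant of the set, were within 2-fold (Solyc07g066310.2 with 559 FPKM in ABA, 614 in NDGA and 696 in CK fruit). The 4 higher entries were a PsbP-like gene, Solyc04g064670.2, and 3 entries for proteins A and C, which the plastid genome normally encodes, such as Solyc11g013780.1 with 15.9 FPKM in ABA, listed at 0 in NDGA and 16.9 FPKM in CK fruit. Calvin cycle entries were 4, of which 3 were lower (median -2.63), among them a glyceraldehyde 3-phosphate dehydrogenase subunit (Solyc04g009030.2, 1.30 FPKM in ABA, 15.7 in NDGA and 10.2 in CK fruit). The enzymes of chlorophyll and haem metabolism differed less, with 0 of 30 entries higher and 8 lower and a median of -0.24, and the lower ones included the chlorophyll-forming protochlorophyllide oxidoreductase A (Solyc10g006900.2, 0.926 FPKM in ABA, 6.68 in NDGA and 3.09 in CK fruit) and the cyclase Crd1 (Solyc10g077040.1, 7.70 FPKM in ABA, 42.6 in NDGA and 33.7 in CK fruit).

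**Figure D4:**
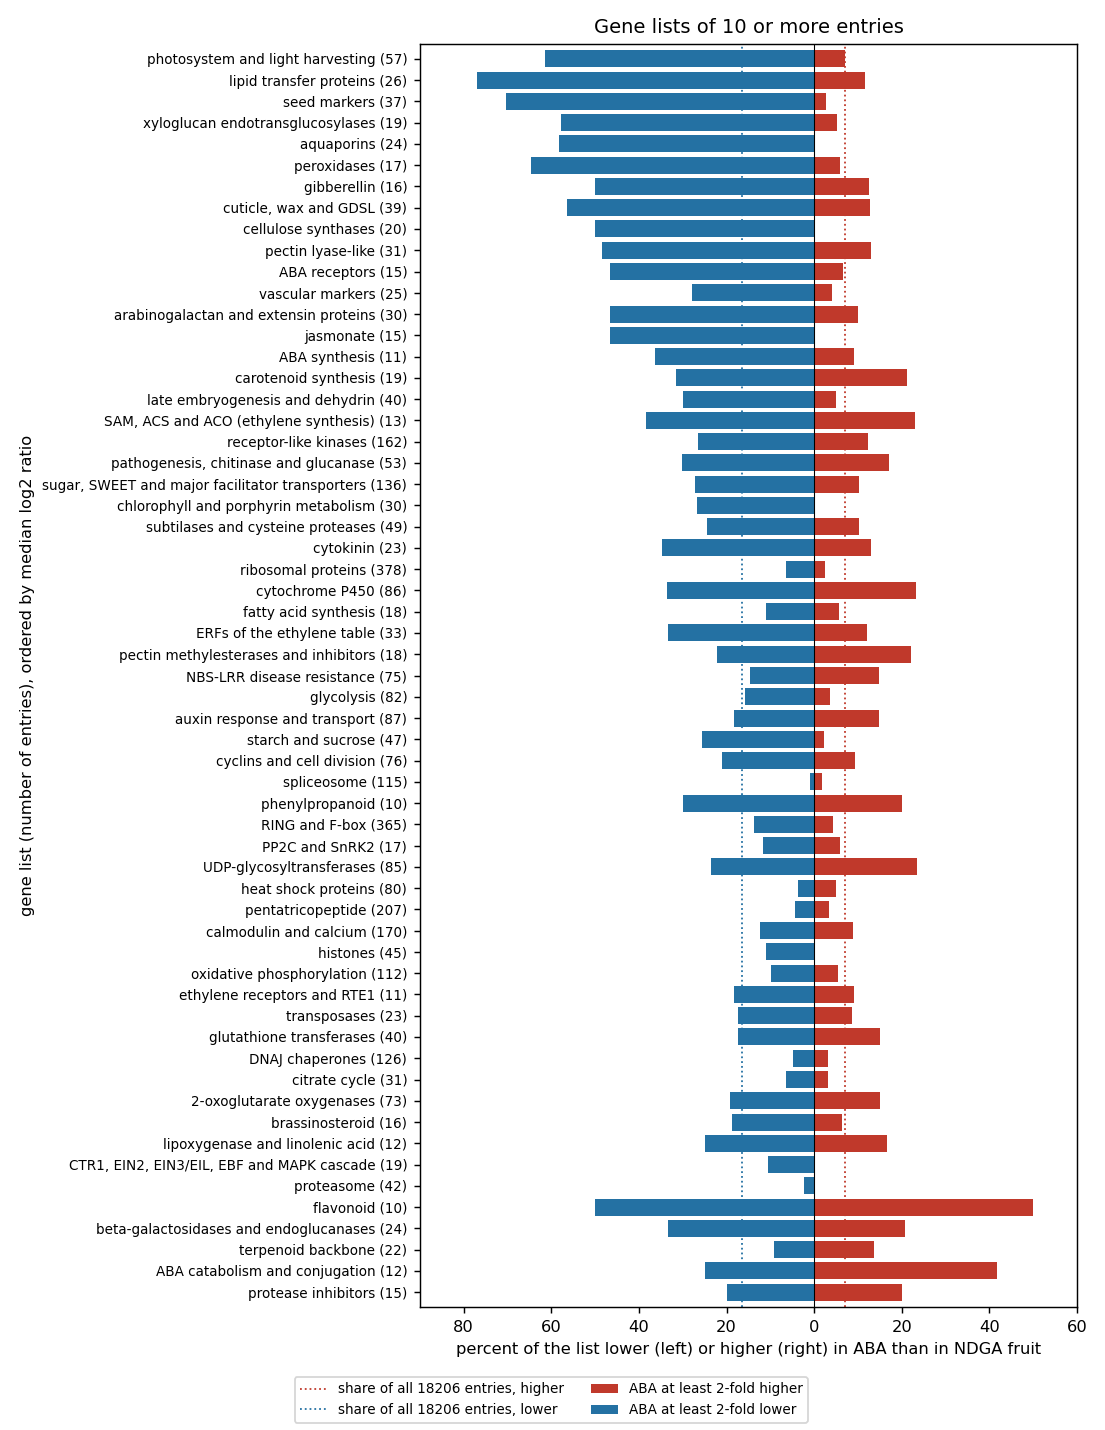
Percent of each gene list that was at least 2-fold lower (blue, to the left) or higher (red, to the right) in ABA than in NDGA fruit, for lists of 10 or more entries, ordered by their median log2 ratio with the lowest on top. Dotted lines mark the shares over all 18206 entries, 16.5% lower and 6.95% higher; the blue bar passes 50% for photosystem, lipid transfer, seed marker, xyloglucan endotransglucosylase, aquaporin, peroxidase and cuticle lists and stays under 10% for ribosomal, proteasome, spliceosome, heat shock and pentatricopeptide lists.

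Most cell wall families counted more lower than higher members in ABA fruit, beside single abundant members that were level or higher. More lower than higher members were also found in most other lists and over all entries (16.5% lower and 6.95% higher). Expansins, which loosen the wall without cutting it, were lower in 6 of 9 entries and higher in 1 (median -1.83). The abundant expansin A4 (Solyc06g051800.2) was level at 720.1 FPKM in ABA, 652 in NDGA and 730.3 in CK fruit, while expansin A13 (Solyc03g031840.2) had 18.2 FPKM in ABA, 65.2 in NDGA and 42.1 in CK fruit and expansin A15 (Solyc02g088100.2) 2.56 FPKM in ABA, 16.6 in NDGA and 8.33 in CK fruit. Xyloglucan endotransglucosylases, which cut and rejoin the chains between cellulose fibrils, were lower in 11 of 19 entries and higher in 1 (median -1.61). The gene XTH25 (Solyc07g009380.2, chromosome 7 from 4435428 to 4437750) had 3.55 FPKM in ABA, 550.4 in NDGA and 194 in CK fruit, a log2 ratio of -7.24, against 1597 FPKM in ABA, 1099 in NDGA and 1230 in CK fruit for the abundant XTH30 (Solyc01g081060.2). The 4 xyloglucan endotransglucosylase entries at a mean of 10 FPKM or more had a median of -0.26 with 1 lower, and the 3 expansin entries at that level a median of -0.36 with 1 lower, so the low medians of both families rest on weakly expressed members. Cellulose synthases and related synthases were lower in 10 of 20 entries and higher in 0 (median -1.0), among them cellulose synthase 6 (Solyc04g072790.1, 1.29 FPKM in ABA, 14.2 in NDGA and 4.67 in CK fruit).

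Among pectin-degrading enzymes of the pectin lyase-like superfamily, 4 of 31 entries were higher and 15 lower (median -0.99), and of the 14 at a mean of 10 FPKM or more 4 were higher and 7 lower (median -0.38). Solyc05g005170.2 had 65.8 FPKM in ABA, 3.98 in NDGA and 16.6 in CK fruit (log2 ratio 4.01), Solyc08g082170.2 had 161 FPKM in ABA, 24.3 in NDGA and 70.5 in CK fruit and the abundant Solyc03g111690.2 had 3589 FPKM in ABA, 1053 in NDGA and 2131 in CK fruit, all higher in ABA fruit. On the lower side, a gene that carries the annotation polygalacturonase 2 (Solyc05g005560.2) had 11.7 FPKM in ABA, 63.6 in NDGA and 23.3 in CK fruit. The pectin lyase-like gene Solyc10g080210.1, also counted as lower, was listed at 0 in ABA, at 2309 FPKM in NDGA and at 10575 FPKM in CK fruit. As for E8, an exact 0 at a gene of this level can be a failed estimate, so no fold is given. Pectin methylesterase inhibitor 2 (Solyc03g112170.1), whose protein holds back demethylation of pectin, was at 18.2 FPKM in ABA, 0.334 in NDGA and 1.64 in CK fruit (log2 ratio 5.40). Its list of pectin methylesterases and inhibitors had 4 higher and 4 lower of 18 entries (median -0.10), and at the other end the inhibitor superfamily gene Solyc07g042390.1 had 0.885 FPKM in ABA, 22.0 in NDGA and 7.84 in CK fruit (log2 ratio -4.49). Beta-galactosidases and endoglucanases numbered 24 entries, 5 higher and 8 lower (median 0.25), with endoglucanase 9B1 (Solyc09g010210.2) at 1278 FPKM in ABA, 551 in NDGA and 969.6 in CK fruit and beta-galactosidase 3 (Solyc01g110000.2) at 3.51 FPKM in ABA, 39.5 in NDGA and 21.5 in CK fruit. The beta-D-xylosidase 4 gene Solyc10g047030.1 had 66.8 FPKM in ABA, 2.54 in NDGA and 14.9 in CK fruit (log2 ratio 4.66). Arabinogalactan and extensin proteins, glycoproteins of the wall, were higher in 3 and lower in 14 of 30 entries (median -0.74), and peroxidases, some of which cross-link the wall, in 1 and 11 of 17 (median -1.35). With a mean of 10 FPKM or more, the medians were -0.29 over 9 arabinogalactan and extensin entries and -1.33 over 4 peroxidase entries.

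Most entries for lipid transfer proteins and GDSL lipases were lower. Lipid transfer proteins carry lipids across the wall towards the cuticle, and their annotation is shared with 2S albumins of the seed. Of this list 20 of 26 entries were lower and 3 higher in ABA than in NDGA fruit, with a median log2 ratio of -2.02 that stood at -2.14 for the 16 entries at a mean of 10 FPKM or more. Solyc02g086310.1 had in its larger entry 642 FPKM in ABA, 4793 in NDGA and 1440 in CK fruit, and Solyc01g090360.2 had 1273 FPKM in ABA, 5148 in NDGA and 1665 in CK fruit. The list built for cuticle, wax and GDSL lipase genes was lower in 22 of 39 entries and higher in 5 (median -1.21). It holds 26 entries of GDSL lipases, a broad family, and 13 of 3-ketoacyl-CoA synthases. The GDSL lipases were lower in 16 and higher in 2 (median -1.35), the 3-ketoacyl-CoA synthases lower in 6 and higher in 3 (median -0.92). The GDSL lipase gene Solyc01g099040.2 was higher at 451 FPKM in ABA, 209 in NDGA and 384 in CK fruit. Outside the list, a gene of the fatty acid hydroxylase superfamily (Solyc03g117800.2) had 0.700 FPKM in ABA, 102 in NDGA and 112 in CK fruit, a log2 ratio of -6.99. Among the higher entries of the cuticle, wax and GDSL list is the 3-ketoacyl-CoA synthase 2 gene Solyc03g005320.2, of whose 2 entries one has 638572 FPKM in ABA fruit and is listed at 0 in NDGA and CK fruit.

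Among membrane channels and carriers, most aquaporin, MtN3 and MtN21/EamA entries were lower, while carriers taken more broadly differed less. Aquaporins were lower in 14 of 24 entries and higher in 0 (median -1.52), and within them the plasma membrane intrinsic proteins, which let water through the cell membrane, were lower in 10 of 14 (median -2.09). The most abundant aquaporin, Solyc08g081190.2 of type PIP1;4, was level at 2015 FPKM in ABA, 1700 in NDGA and 1826 in CK fruit, and Solyc12g056220.1 of the same type had 42.0 FPKM in ABA, 175 in NDGA and 118 in CK fruit. Of 11 aquaporin entries at a mean of 10 FPKM or more, 5 were lower and the median was -0.67. The broad list of sugar, SWEET and major facilitator transporters was lower in 37 and higher in 14 of 136 entries (median -0.28). Over its 56 entries at a mean of 10 FPKM or more the median was -0.09. Nodulin MtN3 genes, known as SWEET sugar exporters, were lower in 8 of 13 entries and higher in 1 (median -1.30). Solyc03g097580.2 had the lowest ratio of the MtN3 genes with 0.0958 FPKM in ABA, 30.1 in NDGA and 7.99 in CK fruit (log2 ratio -7.27). Carriers of the MtN21/EamA group were lower in 11 of 19 entries and higher in 0 (median -1.62). A major facilitator gene, Solyc03g120570.2, went the other way with 2038 FPKM in ABA, 206 in NDGA and 694 in CK fruit (log2 ratio 3.31), as did sulfate transporter 1;3 (Solyc04g072760.2) with 128 FPKM in ABA, 7.59 in NDGA and 46.7 in CK fruit.

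**Figure D5:**
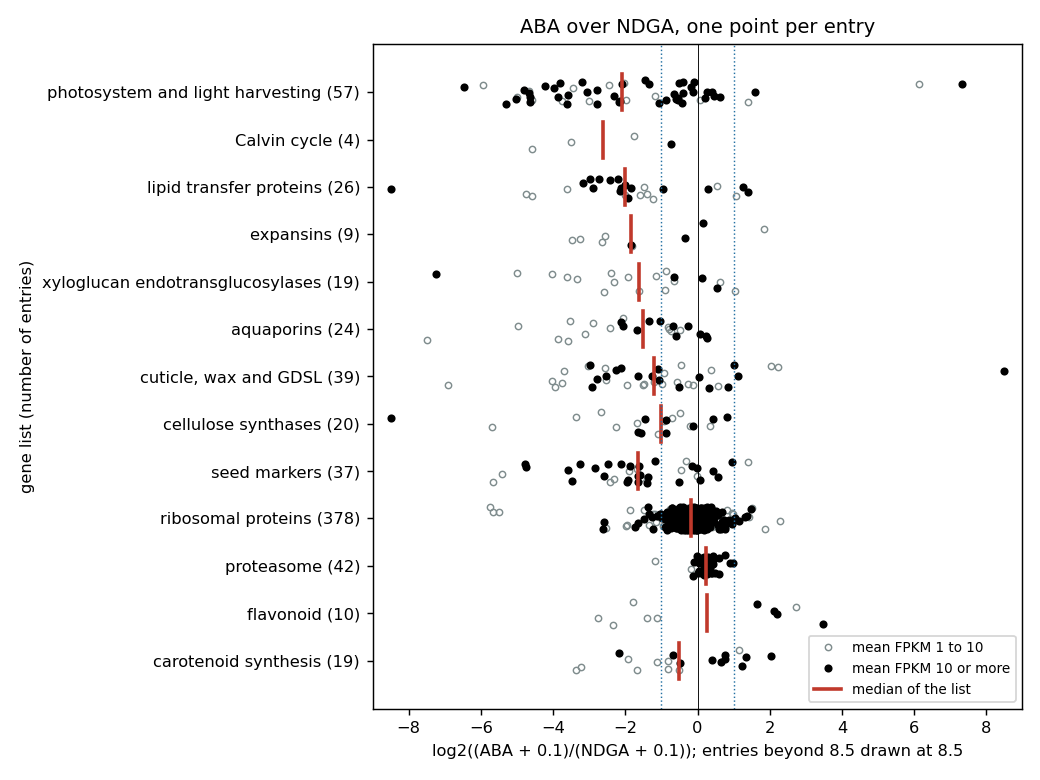
Log2 ratio of ABA to NDGA for each entry of 13 gene lists, filled black at a mean of 10 FPKM or more and open below that, with the median of each list as a red bar; dotted lines mark 2-fold and 3 entries beyond 8.5 are drawn at 8.5. Ribosomal and proteasome entries cluster between the dotted lines, photosystem, lipid transfer and seed marker entries spread to the left of them, and the 10 flavonoid entries lie outside them on both sides.

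Hormone families other than ABA and ethylene were mixed. Over all entries 16.5% were lower and 6.95% higher. Gibberellin genes were lower in 8 and higher in 2 of 16 entries (median -1.29, and -0.31 for the 8 at a mean of 10 FPKM or more). Of the 16 entries, 14 are of the gibberellin-regulated or GAST1 family. The more abundant entry of the GAST1 homologue Solyc12g089300.1 had 37.1 FPKM in ABA, 301 in NDGA and 136 in CK fruit. A gibberellin 2-oxidase, which inactivates the hormone (Solyc07g056670.2), had 168 FPKM in ABA, 47.9 in NDGA and 120.2 in CK fruit. The lowest entry, of a further gibberellin 2-oxidase (Solyc10g007560.1), was listed at 0 in ABA and CK and at 1962 FPKM in NDGA fruit, so no fold is given. Jasmonate genes were lower in 7 of 15 entries and higher in 0 (median -0.61, and -0.14 for the 6 at a mean of 10 FPKM or more, of which 1 was lower), among them the repressor JAZ1 (Solyc07g042170.2, 14.3 FPKM in ABA, 49.6 in NDGA and 25.3 in CK fruit). Brassinosteroid genes were higher in 1 and lower in 3 of 16 entries (6.25% and 18.8%, median 0.17), near the shares over all entries. The higher one was brassinosteroid-6-oxidase 1 (Solyc02g089160.2), which makes the active brassinosteroid, with 122 FPKM in ABA, 21.5 in NDGA and 52.5 in CK fruit. The 3 lower ones carry the annotation brassinosteroid-responsive RING-H2, with Solyc04g054370.1 lowest at 3.04 FPKM in ABA, 39.5 in NDGA and 17.6 in CK fruit. Auxin genes were higher in 13 and lower in 16 of 87 entries (14.9% and 18.4%, median -0.07), with the lower share near that over all entries. They were higher in 8 and lower in 2 of the 39 at a mean of 10 FPKM or more (median 0.15). An auxin efflux carrier (Solyc10g080880.1) had 58.2 FPKM in ABA, 9.59 in NDGA and 33.1 in CK fruit, and a SAUR-like gene (Solyc06g053290.1) had in its more abundant entry 33.7 FPKM in ABA, 139.8 in NDGA and 132 in CK fruit. Among enzymes that modify secondary compounds, cytochromes P450 were higher in 20 and lower in 29 of 86 entries and UDP-glycosyltransferases in 20 and 20 of 85, larger shares past the threshold in both directions than over all entries. With a mean of 10 FPKM or more the higher ones prevailed, with 12 higher and 5 lower of 34 cytochromes P450 (median 0.55) and 10 higher and 3 lower of 28 UDP-glycosyltransferases (median 0.24). The glutathione transferase Solyc07g056420.2 of type TAU 25, abundant in all groups, had 3932 FPKM in ABA, 429 in NDGA and 1342 in CK fruit (log2 ratio 3.19). Hydroperoxide lyase (Solyc07g049690.2), which forms green-leaf volatiles, had 212 FPKM in ABA, 97.9 in NDGA and 145 in CK fruit, and phosphoenolpyruvate carboxykinase 1 (Solyc04g076880.2), which turns organic acids towards sugar in ripening fruit, had 547 FPKM in ABA, 147 in NDGA and 320.1 in CK fruit. It was one of 3 higher entries of the 82 that KEGG places in glycolysis and gluconeogenesis, of which 13 were lower (median -0.08).

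Lists of the core machinery of the cell had smaller shares past the threshold than all entries, of which 6.95% were higher and 16.5% lower. Ribosomal proteins were higher in 9 and lower in 24 of 378 entries (median -0.19), and spliceosome proteins in 2 and 1 of 115 (median 0.01). Proteasome subunits were higher in 0 and lower in 1 of 42 entries (median 0.24), heat shock proteins in 4 and 3 of 80 (median 0.05), and pentatricopeptide proteins, which process RNA in organelles, in 7 and 9 of 207 (median 0.06). Oxidative phosphorylation was higher in 6 and lower in 11 of 112 entries (5.36% and 9.82%, median 0.09), and histones in 0 and 5 of 45 (median 0.09). Among all entries at a mean of 10 FPKM or more, 6.50% were higher and 9.33% lower. The oxidative phosphorylation entries summed to 42747 FPKM in ABA, 24995 in NDGA and 24268 in CK fruit. An entry of Solyc11g005880.1 made up much of this, with 28568 FPKM in ABA, 10012 in NDGA and 11821 in CK fruit (log2 ratio 1.51). Of the 63 gene lists, 11 had a median log2 ratio of -1 or lower, 0 one of 1 or higher, and 33 one between -0.25 and 0.25. More higher than lower members were found in 4 lists.

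Transcription factors were lower in 240 and higher in 82 of 1030 entries (23.3% and 7.96%, median -0.14), against 16.5% and 6.95% of all entries. Their families were not examined by level, and among all entries with a mean of 1 to 3 FPKM 32.0% were lower. Families with lower but no higher entries included Dof with 11 of 23 lower and 0 higher (median -0.86), NF-YB with 7 of 14 lower, GATA with 7 of 19 and G2-like with 7 of 27. AP2 was lower in 6 and higher in 1 of 9 entries (median -1.55), LBD in 7 and 2 of 13 (median -1.03), ERF in 35 and 8 of 82 (median -0.57), HD-ZIP in 11 and 4 of 33 and MYB in 15 and 2 of 49. WRKY factors, which take part in defence and senescence, were higher in 8 and lower in 7 of 40 (median 0.16), and heat shock factors in 1 and 1 of 21. BES1 factors of brassinosteroid signalling had 0 of 9 entries past the threshold.

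The highest and lowest ratios were looked up among genes with a single entry, a mean of at least 5 FPKM and values above 0 in both treatments. At the top stood a gene annotated as target of rapamycin (Solyc07g021050.1), with 287 FPKM in ABA, 0.0582 in NDGA and 0.186 in CK fruit (log2 ratio 10.82). It was followed by Solyc04g014920.1, without annotation and on a locus only 304 bp long, with 43883 FPKM in ABA, 40.8 in NDGA and 85.0 in CK fruit. Next came Solyc11g066810.1, without annotation, with 229 FPKM in ABA, 0.636 in NDGA and 0.676 in CK fruit. Solyc07g021050.1 and Solyc11g066810.1 reached the mean of 5 FPKM only through their ABA value, and their ratios rest on values near 0 in NDGA fruit. Methyl esterase 1 (Solyc02g065280.2), a homologue of an Arabidopsis enzyme that frees salicylate and other hormones from their methyl esters, had 235 FPKM in ABA, 3.85 in NDGA and 33.5 in CK fruit (log2 ratio 5.90). A 2-oxoglutarate dioxygenase gene, Solyc01g108880.2, was the most abundant annotated gene of the 12 highest with 1098 FPKM in ABA, 75.9 in NDGA and 333 in CK fruit (log2 ratio 3.85). The other annotated ones were the pectin lyase-like, pectin methylesterase inhibitor, beta-xylosidase and sulfate transporter genes given above and a protein phosphatase (Solyc06g035480.2, log2 ratio 4.31).

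Of the 12 lowest, 4 encode parts of the chloroplast membrane system, namely the chlorophyll A/B binding protein 1 genes and PSI-N given above and a thylakoid lumen protein (Solyc12g009600.1) with 0.213 FPKM in ABA, 12.8 in NDGA and 8.99 in CK fruit. The transporter gene Solyc05g053860.2, annotated as organic cation/carnitine transporter 3, had 0.856 FPKM in ABA, 38.1 in NDGA and 15.7 in CK fruit (log2 ratio -5.32). The lowest pair carried no annotation, Solyc05g041820.1 with 1.64 FPKM in ABA, 1874 in NDGA and 1.01 in CK fruit and Solyc02g068870.1 with 21.0 FPKM in ABA, 15538 in NDGA and 28.5 in CK fruit, and in these the CK value was near that of ABA fruit. Among abundant entries past the threshold, an HXXXD-type acyltransferase gene (Solyc10g008660.1, 2 entries in all) had 74468 FPKM in ABA, 17459 in NDGA and 28225 in CK fruit (log2 ratio 2.09). The lower side was led by entries listed at 0 in ABA and CK fruit, such as the disease resistance type gene Solyc05g007350.1 with 2230000 FPKM in NDGA fruit, and no fold is drawn from them.

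Some entries limit what single values can show. Of the 18206 entries, 209 were listed at 0 in ABA, 88 in NDGA and 19 in both, and 190 of the lower and 69 of the higher calls rest on such a 0. In 57 of the 259 entries at 0 in only 1 treatment the other treatment exceeded 100 FPKM. Genes listed in 2 entries (2328) had ratios of the same sign in 72.4%, both entries past the threshold in the same direction in 101 (higher) and 208 (lower), and opposite calls in 11.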

How the data were processed

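Poly(A) RNA of 6 pericarp libraries, 2 each from ABA, NDGA and CK fruit, was sequenced by the authors, and the submitters' processing notes name TopHat2 2.0.9 and Cufflinks 2.1.1 with Cuffdiff. The processed tables that the authors deposited and that were analysed here hold 1 averaged FPKM per group and locus. Counts and depths per library are not part of these tables and the reads were not analysed here, so the counting error of each value, a spread and a test could not be computed. Smaller deposited tables repeat these FPKM for selected genes (1523 rows compared, 0 differing) and add the authors' columns on significance and direction against CK, which were not used. Loci are given on the tomato build SL2.40 as deposited.

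Entries naming 1 gene, with a mean of at least 1 FPKM and a locus longer than 300 bp, were compared by log2((ABA + 0.1)/(NDGA + 0.1)) with a 2-fold threshold, where the pseudocount of 0.1 understates the ratios of low genes and gives entries listed at 0 a ratio that is no measured fold. Calculations used Python 3.11.15, numpy 2.4.6, pandas 2.3.3 and matplotlib 3.10.9. The counting was tested on simulated data with a log2 change of 2.5 and noise of 0.15 (SD, log2), far apart from the threshold, so that this checks the code and not the power to detect a change (200 of 200 changed entries recovered, 0 of 18006 unchanged ones past the threshold).

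The 63 lists were built from annotation words, KEGG pathways and the deposited gene tables. Named by rule were the genes of the deposited ABA, ethylene and ripening tables (130 of 178 had an entry kept), the 12 highest and 12 lowest ratios among genes with 1 entry, a mean of at least 5 FPKM and no 0 in either treatment, the 5 most abundant past the threshold in each direction, and 2 genes at each end of a list, and some of these are given only within counts. Further genes, such as NF-YB6, were chosen after their values had been seen. Members and lists were chosen with earlier results of these data known, and list patterns that matched unrelated annotations were corrected after annotations and values had been seen. Many genes have several entries, which may split reads, and 485 loci are shared by entries of different genes, so such values are uncertain, as are those of near-identical gene copies. Since fruits for the libraries of a group were harvested in successive weeks, the averages hide any difference between them. Alternatives tried were another pseudocount or none, other filters on level and locus length, scaling to equal medians, genes with a single entry, and a stricter threshold.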

Additional observations from a re-analysis of the deposited data

How the results depend on the processing

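With a pseudocount of 1 FPKM, none, a locus longer than 1000 bp, no length filter or values rescaled to a median ratio of 0 (a shift of -0.02), the counts of entries higher (1265) and lower (3010) in ABA than in NDGA fruit stayed within 1.5 times. A minimum mean of 10 FPKM gave 654 higher and 938 lower entries and 5 in place of 11 lists with a median of -1 or lower, no mean filter gave 1953, 5100 and 6 lists, a log2 threshold of 1.5 gave 609 and 1926, and genes with a single entry gave 730 higher ones. The share of entries past the threshold with CK between the treatments, 82.3% (Wilson 95% interval 81.1% to 83.4%, over entries, which are not independent), was 85.4% with a pseudocount of 1 FPKM, 86.6% at a mean of 10 FPKM or more, 79.1% without a mean filter, 83.8% for loci over 1000 bp, 86.0% for genes with a single entry and 85.2% at a log2 threshold of 1.5. Of the 63 list medians, 23 moved by more than 0.25 at a mean of 10 FPKM or more, 13 without a mean filter and 10 with single-entry genes. Of 376 named entries, 122 moved that far with a pseudocount of 1 FPKM and 0 with rescaling. No list with a median of -1 or lower, and no named entry past the threshold, changed sign under the alternatives run for it. Of the other medians, 10 changed sign at a mean of 10 FPKM or more, among them ABA receptors (0.94 in place of -0.94), carotenoid synthesis (0.71 in place of -0.52) and cytochromes P450 (0.55 in place of -0.15), 7 without a mean filter, 3 with single-entry genes, 2 with loci over 1000 bp, and 1 each without a pseudocount and with rescaling. No paired analysis was possible because the tables analysed here hold only group averages, and for the same reason no library could be left out in turn.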

Other observations

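Genes past the threshold in the same direction followed each other in 57 runs of at least 3 among 11370 genes placed in order. Of these runs 53 were lower and 4 higher in ABA than in NDGA fruit, and 5 of the 57 hold genes that all share an annotation. Only kept genes with a single entry and a locus of their own were ordered, so other genes can lie between the members of a run. The longest have 5 genes, such as that on chromosome 12 from 57393364 to 61987045. A run of 4 genes annotated as xyloglucan endotransglycosylase 6 was lower on chromosome 3 from 47714081 to 47753434, and 3 genes annotated as MtN3 or its homologue were lower on chromosome 3 from 53354924 to 53385093. The higher runs include 4 genes with phytoene synthase (Solyc03g031860.2) on chromosome 3 from 8604956 to 8664052 and 4 genes on chromosome 9 from 4793476 to 4841512 of which 2 encode glutathione transferases of type TAU 8. Of the 12253 genes with a single entry, from which these were taken, 2058 were lower and 730 higher. Calls that frequent place some neighbours side by side in any order of the genes, and lower ones more often. How many runs this, neighbouring duplicates or shared loci would give was not tested.

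In a few genes CK stood far outside both treatments. An arabinogalactan protein 20 gene (Solyc12g007050.1) had 173 FPKM in ABA, 107 in NDGA and 9.80 in CK fruit, and Solyc12g038500.1, without annotation, had 353 FPKM in ABA, 318 in NDGA and 1.99 in CK fruit. On the other side, the defensin gene Solyc07g009230.2 had 2.71 FPKM in ABA, 1.57 in NDGA and 15.7 in CK fruit. Among genes with a single entry, a mean of at least 5 FPKM and no value of 0, those with CK outside both treatments numbered 1636 above and 1795 below. CK was at least 2-fold away from the nearer treatment in 18 and 30 of them.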
